A study of Mus musculus with 4 samples.

Results

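The replication-dependent histone genes were followed as a group through open-chromatin maps of mouse T cells. They were taken as the protein-coding genes of GENCODE vM21 (mm10) whose names begin with Hist1h, Hist2h, Hist3h or Hist4h, which gave 67 of 21938 protein-coding genes on the assembled chromosomes. Hist1 on chromosome 13 holds 54 of them, Hist2 on chromosome 3 holds 10, Hist3 on chromosome 11 holds 2 (Hist3h2a and Hist3h2ba), and Hist4 on chromosome 6 is the gene Hist4h4. By product there are 6 genes for the linker histone H1, 18 for H2A, 18 for H2B, 12 for H3 and 13 for H4.

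H2A, H2B, H3 and H4 are the core histones around which DNA is wound in the nucleosome, and H1 binds the DNA that enters and leaves it. Dividing cells make most of their histones from these short, clustered and mostly intronless genes while DNA is being copied, and the mRNAs end in a stem-loop instead of a poly(A) tail. Naive T cells are at rest, and activation through the T cell receptor and CD28 drives them into division.

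ATAC-seq, in which a transposase cuts and tags accessible DNA, was run on 4 libraries in 2 conditions. All came from splenic naive CD4+ T cells (CD62LhighCD44lowCD25-) of 7-week-old male wild-type C57BL/6 mice, with 50000 cells per library. In every library the cells were activated with 5 µg/ml anti-CD3 and 1 µg/ml anti-CD28 and cultured for 48 h with 5 ng/ml TGF-β1 and 10 ng/ml IL-2, a mixture that induces regulatory T cells (iTreg). The iTreg+IL-4 libraries (n = 2) also received 15 ng/ml mouse IL-4, and the iTreg libraries (n = 2) received none. The comparison asks whether the histone genes were open to a different degree with IL-4. The study describes its libraries as pooled samples, so the spread between replicates may be smaller than that between animals.

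The deposited lists held 77064 and 56645 peaks for iTreg replicates 1 and 2, and 78670 and 67743 for iTreg+IL-4 replicates 1 and 2. Values for the 4 libraries are given in this order throughout. The lists hold no read totals, so the depth is unknown, and in each condition replicate 2 has the shorter list. The labelled cell type was checked at defining genes: all 9 T cell markers had a peak within 500 bases of a start site in all 4 libraries, while the B cell gene Cd79a, the myeloid genes Lyz2 and Csf1r and the natural killer cell genes Ncr1 and Klrb1c had none in any. Peak strength is given as a rank, the percent of peaks in the same list with a higher −log10 q, so that a low rank marks a strong peak. A percent rank also depends on how long its list is, so the order of libraries at a gene, and whether conditions overlap there, holds for the full lists only unless lists of equal length are named. Heights depend on depth and were not compared between libraries. In bulk libraries, a site open in fewer cells and a site less open in each cell cannot be told apart.

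Promoters of 7 genes or gene pairs are shown because the results turn on them. They are the whole stretch between the starts of the divergent pair with the strongest peaks (Hist1h2ac and Hist1h2bc), 250 of the 280 bases between the starts of a germ-line pair without a peak (Hist1h2ba and Hist1h2aa), 150 of the 267 bases between those of a duplicated pair (Hist1h2ap and Hist1h2br), the best-ranked H1, H3 and H4 genes with a RefSeq promoter entry, and Hist1h2bm, the best-ranked gene with the letters AAACACA. Best-ranked here means by mean rank over the libraries. The stretches all end before the annotated starts and run 5′ to 3′ on the strand of the first gene named. Capitals mark 5 words on either strand: TATAAA (the TATA box), CCAAT (the binding letters of NF-Y), ATTTGCAT (the octamer), AAACACA (a word of H1 promoters) and GGTCCG (a word of H4 promoters).
Hist1h2ac/Hist1h2bc: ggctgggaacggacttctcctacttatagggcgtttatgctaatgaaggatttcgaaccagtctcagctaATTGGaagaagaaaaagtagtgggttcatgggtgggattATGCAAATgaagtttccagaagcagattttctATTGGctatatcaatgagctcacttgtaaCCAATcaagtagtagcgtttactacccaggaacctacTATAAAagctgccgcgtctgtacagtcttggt
Hist1h2ba/Hist1h2aa: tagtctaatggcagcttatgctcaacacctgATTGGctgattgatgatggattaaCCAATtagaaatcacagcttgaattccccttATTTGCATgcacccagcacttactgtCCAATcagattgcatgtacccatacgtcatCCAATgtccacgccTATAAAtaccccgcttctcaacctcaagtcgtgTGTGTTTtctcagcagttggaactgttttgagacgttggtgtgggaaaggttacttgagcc
Hist1h2ap/Hist1h2br: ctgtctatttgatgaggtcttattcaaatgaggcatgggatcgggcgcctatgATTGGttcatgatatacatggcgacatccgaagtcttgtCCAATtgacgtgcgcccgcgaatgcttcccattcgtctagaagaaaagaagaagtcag
Hist1h1c: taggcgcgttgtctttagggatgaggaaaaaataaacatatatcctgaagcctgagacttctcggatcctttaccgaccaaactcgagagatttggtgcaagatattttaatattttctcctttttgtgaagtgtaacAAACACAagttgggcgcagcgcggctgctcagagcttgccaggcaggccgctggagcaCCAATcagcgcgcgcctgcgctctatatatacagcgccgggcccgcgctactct
Hist1h3e: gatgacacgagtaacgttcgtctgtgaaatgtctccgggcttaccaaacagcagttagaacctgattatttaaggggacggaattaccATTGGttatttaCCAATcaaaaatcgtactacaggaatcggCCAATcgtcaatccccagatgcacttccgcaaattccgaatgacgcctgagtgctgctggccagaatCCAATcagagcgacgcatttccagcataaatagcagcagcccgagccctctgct
Hist1h4c: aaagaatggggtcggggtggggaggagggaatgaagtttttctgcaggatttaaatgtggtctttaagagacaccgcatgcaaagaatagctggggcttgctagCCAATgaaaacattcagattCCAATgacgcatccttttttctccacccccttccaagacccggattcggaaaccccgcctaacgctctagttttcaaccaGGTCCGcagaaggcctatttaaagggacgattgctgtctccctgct
Hist1h2bm: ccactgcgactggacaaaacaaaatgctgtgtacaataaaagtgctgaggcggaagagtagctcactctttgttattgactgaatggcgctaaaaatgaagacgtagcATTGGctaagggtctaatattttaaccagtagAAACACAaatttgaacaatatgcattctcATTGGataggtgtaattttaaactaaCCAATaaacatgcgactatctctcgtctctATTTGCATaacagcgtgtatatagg
In the order shown they lie at chr13:23683960-23684198 (minus strand), chr13:23934157-23934406 (minus), chr13:21833576-21833725 (minus), chr13:23738557-23738806 (plus), chr13:23562386-23562635 (minus), chr13:23698459-23698708 (minus) and chr13:21721794-21722043 (plus) of GRCm38.p6, as RefSeq gives them.

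CCAAT, the letters bound by NF-Y, were the most widely shared of 6 words searched in the 250 bases before each RefSeq start, on both strands. Of the 67 members 62 had a RefSeq promoter entry, and Hist1h2bc, Hist1h3a, Hist1h3f, Hist2h2be and Hist2h4 had none. CCAAT was present in all 6 H1, all 18 H2A and all 16 H2B promoters with an entry, in 8 of 10 H3 and in 3 of 12 H4 promoters, and in 35.4% of 21263 RefSeq coding promoters. TATAAA, the TATA box, was in 29 of the 62 members (46.8%) and in 11.6% of coding promoters. Of the 24 members with TATAAA on the sense strand, 12 had its first T between 20 and 40 bases before the start, as in Hist1h2ac, where it began 32 bases before.

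The other words went with histone type. ATTTGCAT, the octamer bound by POU2F1, was in 7 of 18 H2A and 6 of 16 H2B promoters and in no H1, H3 or H4 promoter, and in 1.58% of coding promoters. AAACACA, a word long known from H1 promoters, was in 5 of 6 H1 promoters, 2 H2A and 2 H2B promoters and no others, and in 5.46% of coding promoters. GGTCCG, the core of a cell-cycle element of H4 genes, was in 9 of 12 H4 promoters, 1 H3 and 1 H2B promoter, and in 8.41% of coding promoters. GGGCGG, the GC box, was in 9 of 12 H4, 4 of 6 H1, 5 of 18 H2A, 2 of 10 H3 and no H2B promoters, and in 42.6% of coding promoters. None of the 6 words lies inside another. The median GC content of the 62 promoters was 44.8%, with 55.6% over all coding promoters, and the median observed-to-expected ratio of CpG was 0.72, with 0.53 over all. These are matches of letters and do not show binding.

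Histone promoters were open in both conditions. A peak lay within 500 bases of a start site in all 4 libraries at 63 of the 67 members (94.0%), with 58.5% over all coding genes, and the remaining 4 members had none in any library, with 35.5% over all coding genes. By type these were 4 of 6 H1, 17 of 18 H2A, 17 of 18 H2B, 12 of 12 H3 and 13 of 13 H4 genes, and they included all 10 members of Hist2, both of Hist3 and Hist4h4. No member was called in 1 condition alone. Over all coding genes 0.342% were called in both libraries with IL-4 and neither without, and 0.082% in both without and neither with.

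The members without a call were Hist1h1d, Hist1h1t, Hist1h2aa and Hist1h2ba. Hist1h1t encodes the testis H1, and Hist1h2aa and Hist1h2ba encode the testis variants of H2A and H2B and face away from each other. No peak touched these 3 germ-line genes. The nearest peak lay 812, 814, 897 and 1121 bases from Hist1h1t and was that of the neighbouring gene Hist1h4c. From Hist1h2aa it lay 8097, 8155, 8063 and 9532 bases away. The pair without a peak and the pair with the strongest had 3 words in common: the 250 bases before Hist1h2ba hold 4 CCAAT, 1 ATTTGCAT, 1 TATAAA and 1 AAACACA, and the 239 bases between Hist1h2ac and Hist1h2bc hold 3 CCAAT, 1 ATTTGCAT and 1 TATAAA.

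Hist1h1d, a somatic H1 gene, lacked a call only at the GENCODE start. Its GENCODE record begins 1770 bases upstream of the RefSeq start, and a peak covered the RefSeq start in every library. That peak was 1375, 1509, 1444 and 1464 bases wide, with ranks of 7.52, 18.2, 6.70 and 16.0%. It had the lower rank in the longer list of each condition, and the conditions overlapped. With RefSeq starts for all members, an alternative chosen after seeing the data, 64 members were called in all 4 libraries, and only the germ-line genes had no call.

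**Figure D1:**
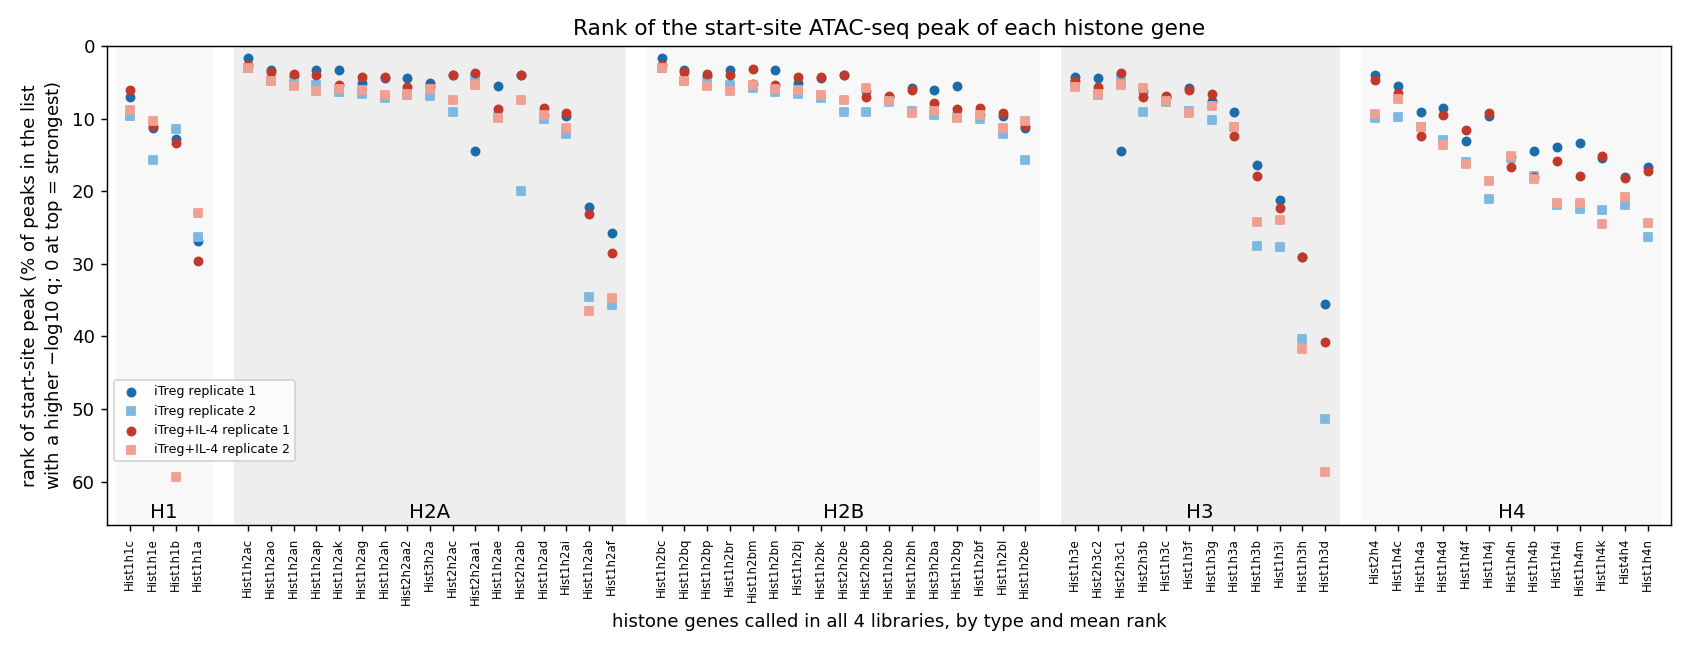
Rank of the start-site peak (vertical axis, percent of peaks in the list with a higher −log10 q, strongest at the top) of the 63 histone genes called in all 4 libraries, grouped by type; each point is 1 library. Mean ranks of H2B genes ended at 12.1%, at Hist1h2be, which took the peak over Hist1h1e. Those of H2A genes ran from 2.56 to 31.2% and those of H3 genes from 4.99 to 46.6%.

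Most histone peaks were among the stronger ones of their list. Over the 63 members the median rank was 6.99, 9.78, 6.93 and 8.94%, and over the 12837 coding genes called in all 4 libraries it was 9.58, 11.8, 9.63 and 10.0%. The members' median peak was stronger than that of the coding genes in each library. Ordered by height in place of −log10 q, the members' medians were 3.13, 6.63, 3.59 and 5.78%, and those of the coding genes 10.1, 12.2, 10.1 and 10.5%. A mean rank in the upper 10% was seen for 39 members (61.9%) and for 48.9% of the coding genes. Genes that share a peak share its rank: the 63 members fell into 44 start regions, 26 with 1 member, 17 with 2 and 1 with 3. With each region counted once, for coding genes too, an alternative chosen after seeing the data, the share in the upper 10% was 23 of 44 (52.3%) and 45.3% of 11866 coding regions, so the gap was smaller. The median ranks of the regions were then 8.78, 10.7, 8.59 and 9.74%, and those of the coding regions 10.6, 13.1, 10.6 and 11.1%.

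The linker genes spread widely. Hist1h1c, which encodes H1.2, was the strongest H1 gene, at 6.99, 9.65, 6.08 and 8.81%, with a peak of 1528, 1497, 1546 and 1489 bases that covered most of the gene. Hist1h1e, which encodes H1.4, ranked 11.3, 15.7, 11.1 and 10.3%. Hist1h1a, which encodes H1.1, was the weakest by mean rank, at 26.9, 26.4, 29.6 and 22.9%. The conditions overlapped at Hist1h1c and Hist1h1a, and at Hist1h1e both IL-4 libraries had the lower ranks. Hist1h1b, which encodes H1.5, ranked 12.8, 11.4, 13.4 and 59.4%. In its last library the signal was called as 2 peaks, and the one at the start was 513 bases wide, where the other libraries had 1 peak of 1471, 1448 and 1481 bases.

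H2A and H2B genes held the strongest peaks. The 17 called H2A genes had median ranks of 4.46, 6.91, 4.33 and 6.68%, and the 17 called H2B genes 5.29, 7.76, 5.38 and 6.72%. Hist1h2ac and Hist1h2bc shared the best peak of all members, at 1.65, 2.97, 2.56 and 3.05%. Its widths were 1393, 1340, 1335 and 1282 bases. By mean rank Hist1h2ao and Hist1h2bq followed, at 3.26, 4.86, 3.53 and 4.85%, and then Hist1h2an and Hist1h2bp, at 4.09, 5.04, 3.81 and 5.48%. In these pairs the ranks of the conditions overlapped. The exceptions among H2A genes were Hist1h2af (25.7, 35.7, 28.6 and 34.8%) and Hist1h2ab (22.2, 34.5, 23.1 and 36.5%), which have no H2B partner facing them.

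Much of the sharing was within divergent pairs. Of 12 H2A and H2B pairs whose starts face away from each other, 176 to 306 bases apart, 11 had 1 peak over both starts in every library, and the remaining pair is the germ-line one. Over other coding genes, 600 of 727 divergent pairs within 1000 bases had 1 such peak in every library. The pair peaks of histone genes had a median mean width of 1197 bases, with 977 bases over the 600 other pairs, and a median mean rank of 5.55%, with 4.65%. The starts lay a median of 251 bases apart in these histone pairs and 116 bases apart in the other pairs. The widths were not matched for this spacing. The 11 paired H2A genes had mean ranks of 2.56 to 10.6%, and the 6 unpaired called H2A genes 5.87 to 31.2%. Unpaired genes could still share a peak. Hist2h2ab took that of Hist2h2ac and Hist2h2be in all libraries but iTreg replicate 2. Hist2h2aa1 and Hist2h2aa2 shared peaks with H3 genes. The H2B genes overlapped more, at 2.56 to 10.6% for the 11 paired and 4.94 to 12.1% for the 6 unpaired genes. The 12.1% is that of Hist1h2be, which took the peak over Hist1h1e. Hist1h2bm, unpaired with a coding partner, ranked 5.29, 5.84, 3.20 and 5.42%.

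Peaks over the near-identical pairs Hist1h2ao with Hist1h2bq and Hist1h2ap with Hist1h2br cannot be told apart by their reads. None of the 32-base words in these 4 genes and the 500 bases before them occurs only once in the genome. The stretch printed for Hist1h2ap and Hist1h2br occurs exactly 2 times, at chr13:21833576-21833725 and, on the plus strand, at chr13:21810217-21810366 between Hist1h2bq and Hist1h2ao. The second pair ranked 3.36, 5.33, 3.94 and 6.23%, close to the first. Only 20 members had at least 80% unique words, all 6 H1 genes among them. By type the median share of unique words was 96.8% for H1, 50.8% for H2A, 60.6% for H2B, 61.3% for H3 and 76.8% for H4. How the aligner placed reads that fit several places is not given in the sources used here.

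H3 genes held both strong peaks and, by mean rank, the weakest. The 12 genes had median ranks of 8.32, 9.66, 6.97 and 8.79%. Hist1h3e was the best by mean rank, at 4.25, 5.27, 4.87 and 5.59%. Hist2h3c1 ranked 14.5, 4.41, 3.79 and 5.44%, stronger than Hist1h3e in all libraries but iTreg replicate 1. Hist1h3d was the weakest of all members by mean rank, at 35.5, 51.4, 40.7 and 58.7%, followed by Hist1h3h at 29.0, 40.3, 29.1 and 41.7%. Both had the higher rank in the shorter list of each condition, and at both the conditions overlapped. Hist1h3c and Hist1h3f took their rank from the stronger peak of a neighbouring H2B gene within 500 bases. Their own, nearest peaks ranked 20.8, 34.9, 21.9 and 27.6% for Hist1h3c and 8.83, 10.6, 10.1 and 9.44% for Hist1h3f.

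By median, H4 genes were weaker than H2A and H2B genes in every library. The 13 genes had median ranks of 13.4, 17.8, 15.2 and 18.4%. Hist2h4 (4.02, 9.96, 4.68 and 9.35%) and Hist1h4c (5.47, 9.78, 6.55 and 7.35%) were the only 2 with a mean rank in the upper 10%. Hist4h4, alone on chromosome 6, ranked 18.1, 21.8, 18.2 and 20.8%. The H4 genes at the other end were Hist1h4n, at 16.6, 26.3, 17.2 and 24.4%. Of the Hist3 genes, Hist3h2a ranked 5.07, 6.91, 5.66 and 6.00% and Hist3h2ba 6.02, 9.48, 7.83 and 8.94%. At Hist3h2a, Hist3h2ba and Hist4h4 the conditions overlapped.

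**Figure D2:**
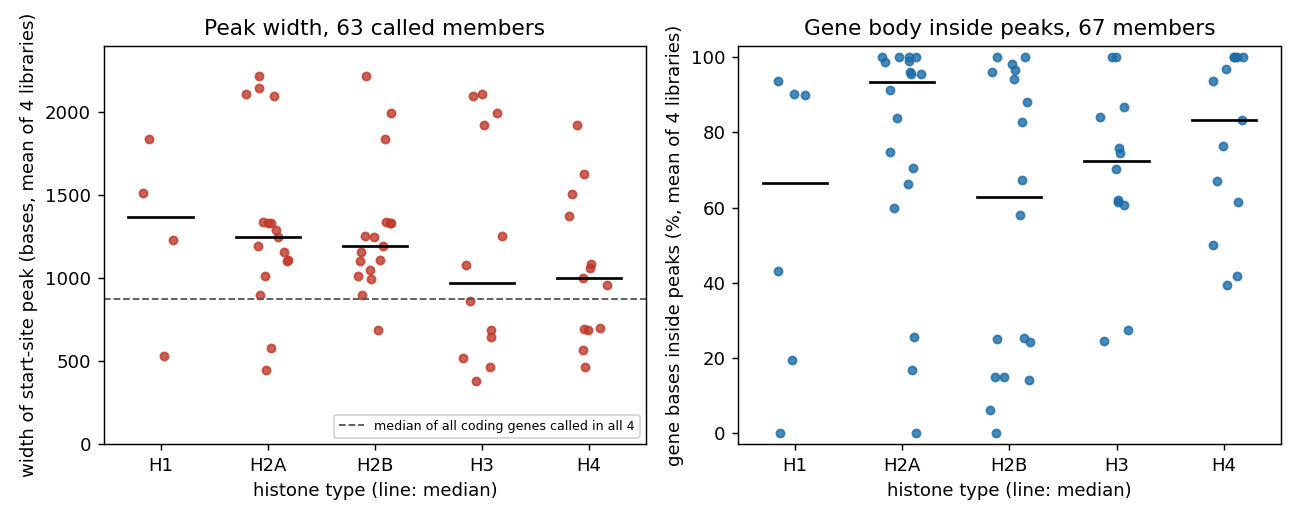
Left, mean width over 4 libraries of the start-site peak of each of the 63 called histone genes, by type, with the median of each type as a line and the median of all coding genes (872 bases) dashed. Right, mean percent of each gene's bases inside peaks for all 67 members; the median was highest for H2A (93.3%).

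Histone peaks were wide for genes so short. The median width over the 63 members was 1268, 1083, 1254 and 1106 bases, and over all coding genes called in all 4 libraries 891, 815, 905 and 871 bases. Genes that share a peak share its width. Merged over the 4 libraries, start regions with 1 member had a median length of 982.5 bases, and those with 2 members 1359 bases. The widest peaks were over Hist2: the peak of Hist2h2ac and Hist2h2be measured 2545, 1297, 2606 and 2421 bases, that of Hist2h2ab 2545, 1012, 2606 and 2421 bases, and that of Hist2h2aa1 and Hist2h3c1 2152, 2053, 2187 and 2055 bases. Each of these peaks covered more than 1 gene in at least 3 libraries. The narrowest were those of Hist1h3d (414, 364, 394 and 354 bases), Hist1h2af (482, 414, 464 and 433), Hist1h4b (470, 450, 464 and 474), Hist1h3h (507, 416, 489 and 449) and Hist1h3i (596, 429, 594 and 467). At 4 of these 5 genes, all but Hist1h4b, the peak was narrower in both shorter lists than in both longer ones.

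Most members lay largely inside peaks. On average 71.2, 64.1, 71.2 and 65.3% of a member's bases were covered, and 45 of the 67 had at least 50% covered in every library. For the 54 called members with 1 exon and up to 2000 bases the means were 84.4, 75.9, 84.5 and 77.4%, and for 145 other such genes called in all 4 libraries 54.4, 48.4, 54.1 and 51.1%. These members were covered more than the other short genes in each library. At least 50% was covered in every library at 45 of these 54 members and at 58 of the 145 others. The sets were not matched for length below the limit of 2000 bases. Entirely covered in every library were 12 members, 4 H2A, 2 H2B, 2 H3 and 4 H4 genes, all among these 54, and 13 of the 145 others. The 3 germ-line genes were not covered at all (0% in every library). The next lowest cover was at Hist1h2be, whose GENCODE record spans 37455 bases, with a mean of 6.11%.

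Hist1h2be shows how annotation can move a peak from gene to gene. Its GENCODE starts lie inside Hist1h1e, so both took the same peak of 1854, 1782, 1851 and 1872 bases. RefSeq also lists a start at position 23585970 of chromosome 13, and a separate peak covered it in every library, 1107, 1134, 1104 and 1202 bases wide, with ranks of 9.22, 11.8, 8.44 and 10.5%. The value of Hist1h2be in the counts is therefore that of the peak over Hist1h1e.

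**Figure D3:**
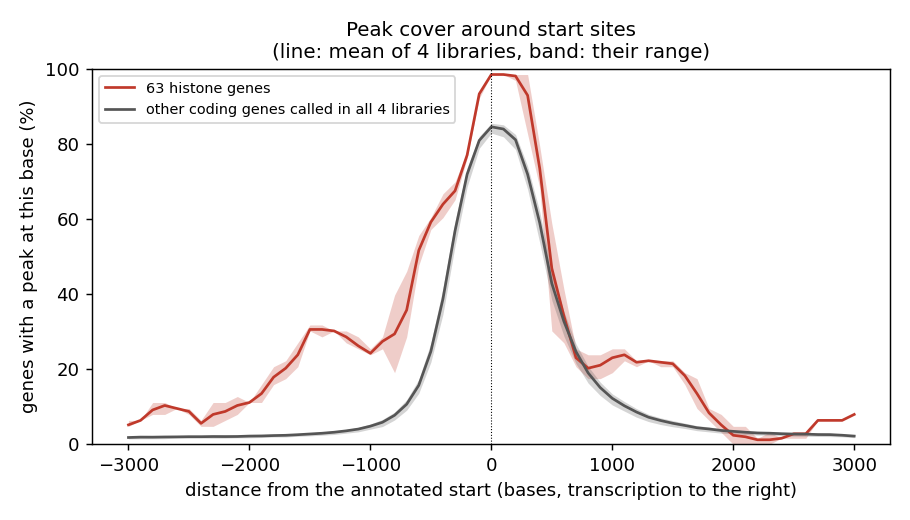
Percent of genes with a peak at each distance from the annotated start (horizontal axis, bases, direction of transcription to the right) for the 63 histone genes and the 12774 other coding genes called in all 4 libraries. Lines are means of 4 libraries and bands their range; the histone genes lie above the others at the start and upstream, with a second rise about 1500 bases upstream; downstream they fall to or below the others about 700 bases from the start and lie above them again from 1000 to 1500 bases.

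Histone genes were covered more often than other called genes at the start and upstream of it, and downstream the order changed with distance. At the start itself 98.4% of the 63 members had a peak in each library, and 85.4, 82.8, 85.3 and 84.4% of the 12774 other coding genes did. At 600 bases upstream it was 52.4, 50.8, 55.6 and 47.6% of members and 16.4, 13.6, 17.2 and 15.6% of the others. At 1500 bases upstream it was 31.7, 30.2, 30.2 and 30.2% and 3.02, 2.24, 3.05 and 2.61%. At 600 bases downstream it was 41.3, 27.0, 39.7 and 28.6% and 33.7, 28.8, 35.3 and 33.0%, so that in the shorter lists the members were the less covered. At 700 bases downstream the members were the less covered in every library, at 25.4, 20.6, 25.4 and 20.6% and 25.7, 21.5, 26.7 and 24.7%. Farther downstream they were again the more covered in every library, at 1000 bases with 25.4, 22.2, 25.4 and 19.0% and 12.9, 10.5, 13.4 and 12.1%, and at 1500 bases with 22.2, 20.6, 22.2 and 20.6% and 5.96, 4.66, 6.29 and 5.41%.

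**Figure D4:**
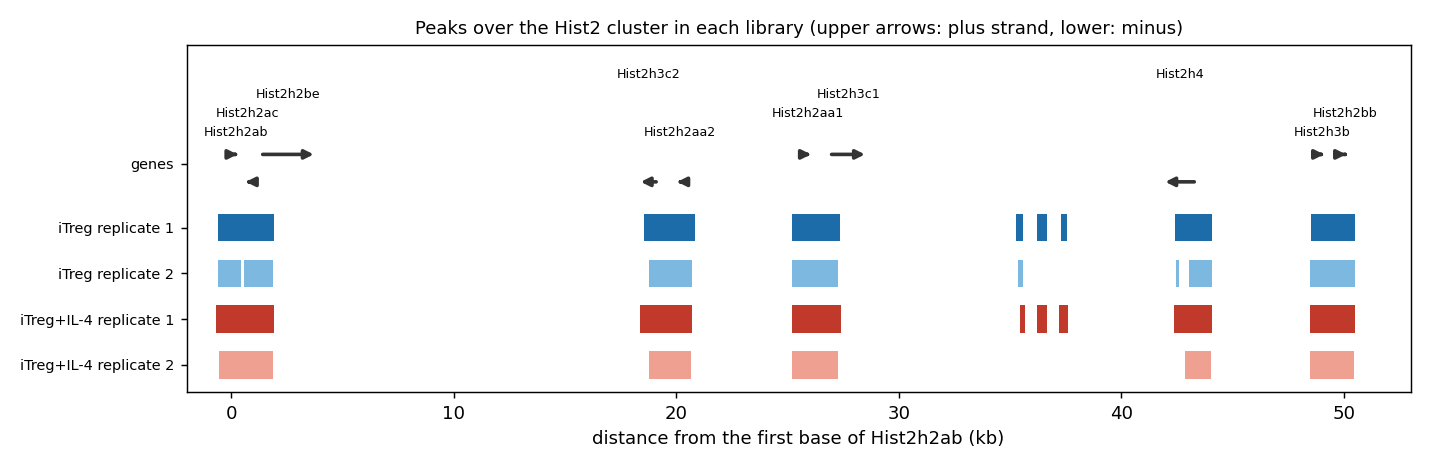
Hist2 cluster with its 10 genes as arrows (upper, plus strand; lower, minus strand) and the peaks of each library as bars, against distance from the first base of Hist2h2ab in kb. Peaks stand over the genes in every library at 5 places, and those between genes, left of Hist2h4, are narrow and not called in iTreg+IL-4 replicate 2.

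The Hist2 cluster, 50.3 kb long, showed the peaks of all 10 genes in 5 places. Hist2h2ab, Hist2h2ac and Hist2h2be lay under 1 peak in 3 libraries, and in iTreg replicate 2 under 2 peaks, with a rank of 19.9% over Hist2h2ab and 9.14% over the other two. Hist2h2aa2 with Hist2h3c2, Hist2h2aa1 with Hist2h3c1, and Hist2h3b with Hist2h2bb each shared 1 peak in every library. The peak of Hist2h2aa1 and Hist2h3c1 ranked 14.5, 4.41, 3.79 and 5.44% by −log10 q, but 0.868, 1.64, 0.944 and 2.13% by height. The first library was the weakest by −log10 q and the strongest by height. Hist2h4 had a peak of 1663 and 1675 bases in the longer lists and of 1029 and 1140 bases in the shorter. Peaks of 213 to 457 bases between genes were called in 3 libraries, with ranks of 65.2% or more, and in iTreg+IL-4 replicate 2 none was called.

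The Hist1 genes lie in 2 groups on chromosome 13, separated by more than 200 kb. The first, chr13:21715763-22043676, runs from Hist1h2bl to Hist1h2bj with 23 members, and all 23 were called in every library. The second, chr13:23531050-23934851, runs from Hist1h4h to Hist1h2aa with 31 members, 27 of them called. Member peaks numbered 16 in the first and 20 in the second group in each library. Tandem genes could share a peak too: Hist1h3a and Hist1h4a, on the same strand, lay under 1 peak of 1943, 1917, 1924 and 1903 bases.

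Tests over the 4 libraries detected no difference between conditions at the histone genes. The share of members with a start-site peak was 94.0% ± 0 (SD, n = 2) in each condition. The median rank was 8.38 ± 1.97% in iTreg and 7.93 ± 1.42% in iTreg+IL-4, a difference of -0.45 (exact two-sided permutation test over 4 libraries, p = 0.67). The direction of this difference did not hold: it was 0.51 in lists of equal length, 0.94 without iTreg replicate 2 and 0.55 without iTreg+IL-4 replicate 1. The median width was 1176 ± 131 and 1180 ± 105 bases (exact permutation p = 1). The mean share of a gene inside peaks was 67.6 ± 5.01 and 68.3 ± 4.20% (exact permutation p = 0.67). With 2 libraries per condition the smallest p these exact tests allow is 0.33. The spread between the replicates of a condition was larger than each difference, except for the share, which did not vary.

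Gene by gene, the count of members in each direction depended on the length of the lists. In the full lists the mean rank with IL-4 was higher, that is weaker, at 32 members and lower at 31, with a median difference of 0.02 percentage points and a range from -6.27 to 24.3. Over all coding genes called in all 4 libraries the median difference was -0.65, and 27.6% were above 0. Of the 63 members 4 (6.35%) had a better rank in both IL-4 libraries than in both others, with 20.1% over all coding genes, and 4 (6.35%) a worse one, with 5.78%. In lists cut to the 56645 strongest peaks each, an alternative chosen after seeing the full lists' counts, the mean rank with IL-4 was higher at 49 members and lower at 14, with a median difference of 0.99 percentage points, and over 12490 coding genes 54.0% were above 0, with a median of 0.10. Of the 63 members 1 (1.59%), Hist1h3g, then had a better rank in both IL-4 libraries, with 12.7% over all coding genes, and 25 (39.7%) a worse one, with 12.6%. These 25 lay in 18 of the 44 start regions, so they are not 25 separate observations, and they included Hist1h2ac with Hist1h2bc, Hist1h2ao with Hist1h2bq, Hist1h3d, Hist1h3e, Hist1h3h and the Hist3 and Hist4 genes, where the full lists overlapped. Their median difference was 1.87 percentage points. No direction is drawn from either count.

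In the full lists the members with a better rank in both IL-4 libraries were Hist1h1e with Hist1h2be, which share a peak, and Hist1h2ad with Hist1h2bf, which share another at 9.57, 10.0, 8.54 and 9.56%. None of these 4 kept it in lists of equal length. Those with a worse rank, which all 4 kept, were Hist1h1b, Hist1h4b (14.5, 17.8, 18.0 and 18.4%), and Hist1h3a with Hist1h4a (9.07, 11.1, 12.3 and 11.1%). The difference at Hist1h1b, 24.3 percentage points, rested on iTreg+IL-4 replicate 2, where its signal was called as 2 peaks. Without that library its rank with IL-4 was 13.4% against 12.8 and 11.4%. In lists of equal length 39 of the 63 members had a higher rank in replicate 2 of iTreg and 40 in replicate 2 of iTreg+IL-4, with 36.2 and 35.7% of coding genes. In the full lists, whose replicate 2 is the shorter, it was 59 and 55 members (93.7 and 87.3%), with 82.6 and 61.2% of coding genes.

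Related gene lists were also open. A list of histone mRNA factors held Slbp, which binds the stem-loop, and Npat, which activates histone genes. It also held transcription factors such as Pou2f1, Nfya, Nfyb and Nfyc, and the cell-cycle genes Cdk2, Ccne1 and Ccne2. All 19 measured genes of this list were called in all 4 libraries, with a median mean rank of 4.44%. All 21 S-phase genes were called in all 4 libraries, with a median of 4.17%. Of 13 replication-independent histone genes 10 were called in all 4 libraries, with a median of 7.11%, and H2afy2, H1foo and H2afb1 in none. Over all coding genes the share called in all libraries was 58.5%, and the median mean rank 10.3%. No gene of these lists was called in 1 condition alone. Single-exon coding genes of up to 2000 bases other than the members were called in all 4 libraries at 145 of 940.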

How the data were processed

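The authors deposited 1 peak list per ATAC-seq library in mm10 coordinates, with the −log10 q-value and the pileup signal (height) of each peak. The submitters' processing notes name Bowtie2 2.2.5, MACS2 2.1.2 and bedtools 2.16.2, with no settings. Peaks were called per library. The lowest −log10 q was 1.31 in every list. No peak ran past the end of a GRCm38 chromosome.

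From the lists (Python 3.11.15, pandas 2.3.3) each gene was given its strongest peak within 500 bases of any GENCODE vM21 start site, with its rank, width and cover. RefSeq (GRCm38.p6) gave promoters, 32-base words and alternative starts. Promoters for motifs were the first entry of each member. Conditions were compared by an exact two-sided permutation of the 4 libraries. Calling code was tested on simulated lists. Alternatives were other distances, start records, stricter and equal-length lists, other ranks, subsets of members, each library left out, and pairing by replicate number. Named were members missing a call, those of Hist3 and Hist4, extremes of width, rank and rank difference, and members with a printed promoter. The members and lists were chosen with earlier results of these data known. The p-values measure only the spread between these samples.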

Additional observations from a re-analysis of the deposited data

How the results depend on the processing

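The count of 63 members called in all libraries was 61 in the upper 50% of each list, 62 with the start inside a peak, 64 with RefSeq starts, 44 with shared start regions counted once (of 48), and 16 of the 20 members with at least 80% unique words. Differences between conditions (IL-4 minus none) were small and turned sign: for the rank 0.51 in lists of equal length, for the width -7.75 bases with shared regions counted once and -19.5 with the nearest peak, for the share inside peaks -0.88 with unique members, and for Hist1 peaks away from coding starts 2.5 in the upper 50%, where the difference in the share called was -0.75. In lists of equal length the difference in Hist1 peaks was -5.5 (exact permutation p = 0.33), and in the full lists -0.5. In lists of equal length 49 members, not 32, were weaker with IL-4 by mean rank, and 25, not 4, in both libraries. The cause was not tested. No exact p reached 0.05 anywhere, which this design cannot. Leaving out each library gave -1.84 to 0.94 for the rank, -88 to 97 for the width, -2.89 to 4.19 for the share inside peaks and -11 to 10 for the Hist1 peaks; without iTreg replicate 2 or iTreg+IL-4 replicate 1 the first 3 turned sign, and without iTreg replicate 1 or iTreg+IL-4 replicate 2 the last did. In the fit with a replicate block, differences were taken within numbers and came out equal, -0.45 for the rank, 4.5 for the width, 0.65 for the share inside peaks, -0.5 for the Hist1 peaks and 0 for the share called, and the smallest p a block allows is 0.5. The starts inside peaks, RefSeq starts, nearest peaks, ranks of regions and counts by gene in lists of equal length were chosen after seeing the data. Depth is unknown, so a missing peak is not a closed site.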

Other observations

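Between the first and the last Hist1 gene, 89, 68, 84 and 72 peaks lay more than 500 bases from any coding start in iTreg replicates 1 and 2 and iTreg+IL-4 replicates 1 and 2, 78.5 ± 14.8 and 78.0 ± 8.49 (SD, n = 2) per condition, with an exact permutation p of 1. In lists cut to equal length the difference with IL-4 was -5.5 peaks, where the exact permutation p of 0.33 is the smallest that 4 libraries allow. Looked up after these counts were seen, RefSeq places 77 tRNA genes in this span; tRNAs carry amino acids to the ribosome and are transcribed by RNA polymerase III. Of the peaks away from coding starts 41, 33, 37 and 34 overlapped a tRNA gene, 44.0 to 48.5% of them. Of the 77 tRNA genes 36 lay in a peak in all 4 libraries and 20 in none, and none lay in the peaks of both libraries of 1 condition and neither of the other. The 36 are 46.8% of them, and of 326 tRNA genes elsewhere on the assembled chromosomes 55.2% lay in a peak in all 4 libraries, 38.3% in none and 0 in 1 condition alone. The Hist1 peaks over tRNA genes had median widths of 539, 513, 621 and 620 bases and median ranks of 43.4, 51.1, 46.3 and 50.0%, so they were narrower and weaker than the median histone start-site peak in each library.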
